A study of Mus musculus with 4 samples.

Results

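Cell cycle and mitosis genes were followed in mouse endometriotic lesions, in which tissue like the lining of the uterus grows elsewhere in the body. The list held 42 genes, 17 of S phase, when DNA is copied, and 25 of mitosis, when the copies are separated. A gene entered if at least 1 probe set, a group of short probes read together as 1 value, was annotated to that gene alone. By this rule 41 genes with 96 of the 45101 probe sets on the array were found, 17 of S phase and 24 of mitosis. The expression of Ccnb1 was not analysed here. The probe set with the highest mean stood for each gene. Lesion RNA was hybridised to 4 Affymetrix 3′ expression arrays, 2 from mice on a high-fat diet and 2 from mice on a casein diet, labelled as control. The sources used here do not give strain, genotype, age or duration of feeding, nor the number of animals or lesions behind an array. The p-values therefore measure only the spread between these arrays, which may be technical.

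When a cell commits to division, E2F transcription factors switch on the genes that load, open and copy replication origins. Genes for the spindle, the kinetochore and chromosome separation are switched on later, by B-MYB and FOXM1 acting with the MuvB complex, and the related DREAM complex represses them in resting cells. In the uterus, epithelial and stromal cells divide in response to ovarian oestrogen and progesterone.

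The 4 arrays had median intensities of 55.1 to 56.5, and 12797 genes were bright enough to be tested. Of markers of the labelled tissue, 10 of 10 epithelial and 10 of 10 endometrial stroma genes passed the same filter. Among them were the steroid receptor genes Esr1 and Pgr. Since 12797 of all 18193 genes passed it, this count does not identify the tissue. Both replicate 1 arrays stood apart for genes of other tissues. In high-fat diet replicate 1, 10 skeletal muscle markers summed to an intensity of 27065, against 807 to 1026 in the other arrays. In casein diet replicate 1, 10 gastric markers summed to 72114, against 458 and 480.0 on the high-fat diet and 10491 in casein diet replicate 2. The brightest of them there was Tff1, at 21720, and not all of the 10 followed the sum. Atp4b had 46.6 and 41.5 on the high-fat diet and 46.5 and 44.4 on the casein diet. Atp4a, below the filter, had 18.1 and 23.8 on the high-fat diet and 25.4 and 27.0 on the casein diet. RNA integrity was read from the Gapdh control probe sets, whose 3′ end exceeded the 5′ end by 1.19 and 0.98 log2 on the high-fat diet and 1.03 and 1.09 on the casein diet.

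Mitosis genes differed more between the arrays of a diet than between the diets. The replicate numbers only name the arrays, the labels pair none of them, and their order was looked at after the values were seen. For 22 of 24 of them both replicate 1 arrays lay above both replicate 2 arrays, which held for 13.0% of all genes tested. Casein diet replicate 1 was the highest array for 22 of 24, against 33.3% of all genes, and high-fat diet replicate 2 was the lowest for 16 of 24, against 20.8%. The median mitosis gene lay 0.13 above its 4-array mean (log2) in high-fat diet replicate 1 and 0.27 below it in replicate 2, against 0.35 above it in casein diet replicate 1 and 0.19 below it in replicate 2. All genes tested had medians between -0.01 and 0.00. Replicate 1 exceeded replicate 2 by a median factor of 1.30 on the high-fat diet and 1.52 on the casein diet. The lesions are bulk samples, in which fewer cells of a type and less RNA per cell cannot be told apart.

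**Figure D1:**
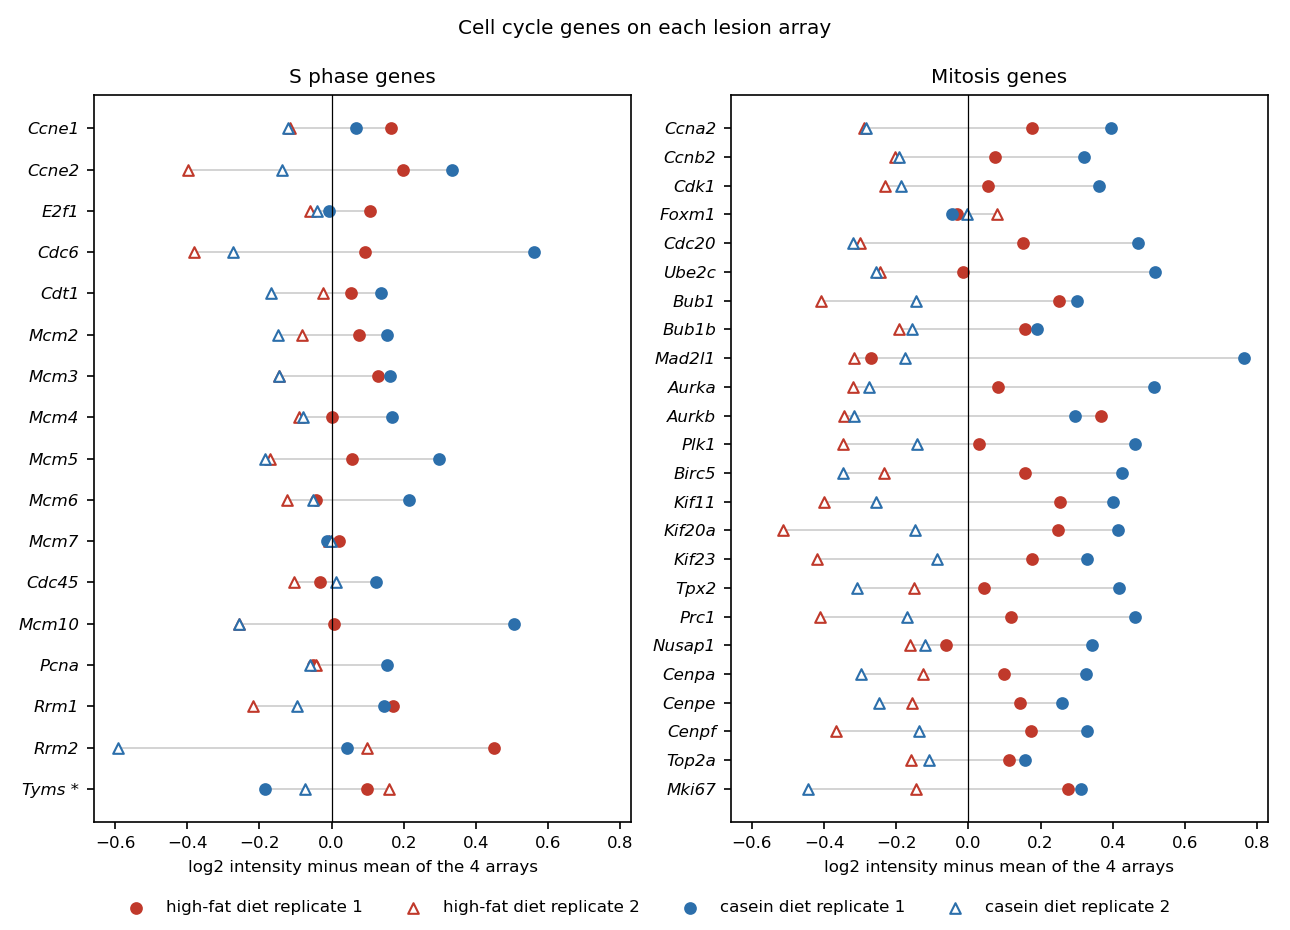
Log2 intensity of each gene minus its mean over the 4 arrays, for S phase genes (left) and mitosis genes (right). Filled circles are replicate 1 and open triangles replicate 2, in red for the high-fat diet and blue for the casein diet; Tyms, marked with an asterisk, was too dim to be tested. For 22 of 24 mitosis genes both circles lie to the right of both triangles.

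Genes that mark chromosomes of dividing cells had both replicate 1 arrays on top. Mki67, which encodes the proliferation antigen that coats mitotic chromosomes, had intensities of 952 and 712 on the high-fat diet and 976 and 578 on the casein diet. Top2a, the topoisomerase that untangles replicated DNA, had 887 and 734 on the high-fat diet and 913 and 759 on the casein diet. For both genes the replicate 1 arrays were close to each other and above the rest, and the diets overlapped. The log2 difference, high-fat diet minus casein diet, was 0.13 for Mki67 (SE 0.33, 95% interval -0.79 to 1.06) and -0.05 for Top2a (SE 0.16, 95% interval -0.51 to 0.42).

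The engine of mitotic entry is the kinase Cdk1 with its cyclins. Cdk1 had intensities of 419.9 and 344 on the high-fat diet and 519 and 355 on the casein diet. Ccna2, the cyclin of S phase and early mitosis, had 508 and 368 on the high-fat diet and 592 and 369 on the casein diet. The B-type cyclin gene Ccnb2 had 222 and 183 on the high-fat diet and 263 and 185 on the casein diet. In these 3 genes the replicate 2 arrays of the diets nearly coincided, and casein diet replicate 1 was the highest array. Foxm1, a transcription factor of mitosis genes, did not share the order in its brightest probe set. This had intensities of 78.7 and 84.9 on the high-fat diet and 77.9 and 80.2 on the casein diet. Its 4 arrays lay close together, and high-fat diet replicate 2 was the highest. A dimmer Foxm1 probe set above the filter had 39.6 and 35.2 on the high-fat diet and 43.9 and 32.1 on the casein diet. There both replicate 1 arrays were on top. The remaining probe set above the filter was also highest in casein diet replicate 1, but its high-fat diet arrays were level.

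Cdc20 and Ube2c act with the anaphase-promoting complex, the ubiquitin ligase that ends mitosis. Cdc20, its activator, had intensities of 601 and 439.7 on the high-fat diet and 749 and 433 on the casein diet. Ube2c, its ubiquitin-conjugating enzyme, had 452 and 386 on the high-fat diet and 654 and 383 on the casein diet. In both, casein diet replicate 1 stood well above high-fat diet replicate 1, and the replicate 2 arrays were level.

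The spindle checkpoint delays anaphase until every chromosome is attached. Its kinase gene Bub1 had intensities of 241 and 153 on the high-fat diet and 249.8 and 183 on the casein diet. Bub1b, a checkpoint kinase of the same family, had 195 and 154 on the high-fat diet and 200.1 and 157 on the casein diet. Mad2l1, which encodes the checkpoint protein that holds Cdc20 inactive, had a high value in a single array, with 441 and 426 on the high-fat diet and 901 and 471 on the casein diet. It was the mitosis gene with the largest diet difference (log2 difference -0.59, SE 0.35, 95% interval -1.58 to 0.41, limma unadjusted p = 0.174, adjusted p = 0.863). It was also the 1 of 24 whose diets did not overlap. Both of its high-fat diet arrays lay below both casein diet arrays, as in 19.3% of all genes tested. Its diet difference came mostly from casein diet replicate 1, and without this array the difference was -0.12.

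Among the mitotic kinases, Plk1, which drives spindle assembly and mitotic exit, had intensities of 173 and 133 on the high-fat diet and 233 and 153 on the casein diet. Aurka, the spindle pole kinase, had 138 and 104 on the high-fat diet and 186 and 108 on the casein diet. Aurkb, the kinase of the chromosomal passenger complex, had 143 and 87.1 on the high-fat diet and 136 and 88.9 on the casein diet. By the brightest probe set, Aurkb was the single mitosis gene with its highest value in high-fat diet replicate 1. Its other probe set had 66.4 and 53.5 on the high-fat diet and 68.3 and 54.6 on the casein diet, highest in casein diet replicate 1. Dimmer probe sets above the filter for Kif11, Cenpf and Tpx2 were highest in high-fat diet replicate 1. The Aurkb partner Birc5, the survivin gene, had 346 and 264 on the high-fat diet and 416 and 244 on the casein diet, again with both replicate 1 arrays on top.

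Genes of the spindle midzone and motors had the lowest values in high-fat diet replicate 2. Kif20a, a kinesin of cytokinesis, had intensities of 122 and 71.6 on the high-fat diet and 136 and 92.4 on the casein diet. Kif23, a kinesin of the central spindle, had 214 and 141 on the high-fat diet and 238 and 178 on the casein diet. Prc1, which bundles midzone microtubules, had 269.9 and 187 on the high-fat diet and 343 and 221 on the casein diet. In these 3 genes high-fat diet replicate 2 was the lowest array and casein diet replicate 1 the highest, and high-fat diet replicate 1 lay above casein diet replicate 2, so the diets overlapped. The log2 difference was -0.27 for Kif20a (SE 0.35), -0.24 for Kif23 (SE 0.28) and -0.29 for Prc1 (SE 0.31). Kif11, the motor that separates spindle poles, and the microtubule-associated protein genes Tpx2 and Nusap1 differed by -0.14, -0.11 and -0.22, and both replicate 1 arrays were on top for each.

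The kinetochore joins chromosomes to the spindle. Cenpa, the histone variant that marks centromeres, had intensities of 319 and 273 on the high-fat diet and 374 and 242 on the casein diet. Cenpe, a kinetochore motor, had 159 and 129 on the high-fat diet and 172 and 121 on the casein diet. Cenpf, a kinetochore and nuclear matrix protein gene, had 209.6 and 144 on the high-fat diet and 233 and 169 on the casein diet. Their diet differences were -0.03, -0.01 and -0.19. In none of the 3 was the difference as large as the gap between the 2 arrays of either diet.

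**Figure D2:**
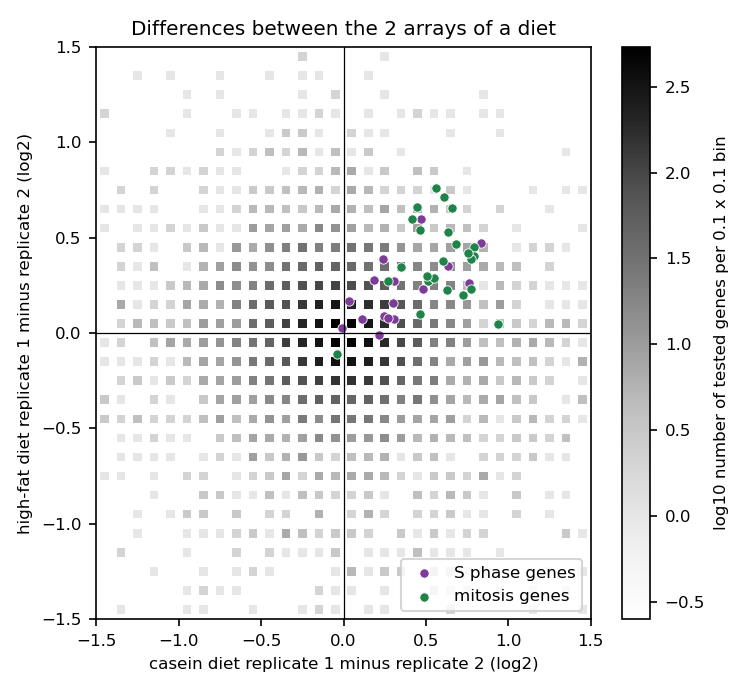
Replicate 1 minus replicate 2 (log2) on the casein diet (horizontal axis) and on the high-fat diet (vertical axis) for mitosis genes (green) and S phase genes (purple), over the number of tested genes per bin (grey, log10 scale); genes beyond the axes are not drawn. Of 24 mitosis genes, 23 are above 0 on the high-fat diet and 23 above 0 on the casein diet, against 47.0% and 47.8% of all genes tested.

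Promoters of the mitosis and S phase genes are shown because most genes within each group moved together across the arrays. RefSeq promoter sequences (GRCm38.p6), from 250 bases before to 50 after the annotated start, matched 20 mitosis genes with 21 promoters and 15 S phase genes with 16. The 20 include Ccnb1, whose expression was not analysed here. Both strands were searched for the cell cycle genes homology region (CHR, TTTGAA), which MuvB complexes bind, for CCAAT, the NF-Y box, and for the E2F-like pattern TTTNNCGC. The CHR letters stood in 15 of 21 mitosis promoters (71.4%) and 2 of 16 S phase promoters (12.5%), against 17.9% of 32851 promoters. Within 50 bases of the start they stood in 66.7% of mitosis promoters, 6.25% of S phase promoters and 4.94% of all. The E2F-like pattern had the opposite split, with 1 of 21 mitosis promoters (4.76%) and 7 of 16 S phase promoters (43.8%), against 5.17% of all. CCAAT was common to both, in 85.7% of mitosis and 68.8% of S phase promoters, against 37.4% of all. Such a match is a description of letters and not a binding site. The genes of the 2 lists were picked as cell cycle genes, so these shares describe the lists and say nothing of the diets.

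For 4 mitosis genes and 2 S phase genes the promoter is printed 5′ to 3′, with matches to any of the 3 motifs in capitals. Plk1 (chr7:122159185-122159484, plus strand), Cdc20 (chr4:118437294-118437593, minus strand) and Ccnb2 (chr9:70421505-70421804, minus strand) carry CHR letters at 31 bases after, 18 before and 5 after the start, and Ccnb2 has a further match upstream. Mad2l1 (chr6:66534971-66535270, plus strand) holds none of the 3 motifs in this window. Bub1 and Cenpe also lack the CHR letters, and both had the common order of the arrays. Whether motifs go with that order was not tested. Mcm5 (chr8:75109259-75109558, plus strand) has 2 E2F-like matches that overlap on opposite strands, and Rrm2 (chr12:24708004-24708303, plus strand) has a single CCAAT. No other matches in these sequences overlap.
Plk1: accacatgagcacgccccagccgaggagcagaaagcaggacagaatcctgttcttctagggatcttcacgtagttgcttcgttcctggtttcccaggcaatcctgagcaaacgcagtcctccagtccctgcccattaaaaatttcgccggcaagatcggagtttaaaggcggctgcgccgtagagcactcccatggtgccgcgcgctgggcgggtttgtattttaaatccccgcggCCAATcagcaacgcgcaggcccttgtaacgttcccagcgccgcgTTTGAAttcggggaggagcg
Cdc20: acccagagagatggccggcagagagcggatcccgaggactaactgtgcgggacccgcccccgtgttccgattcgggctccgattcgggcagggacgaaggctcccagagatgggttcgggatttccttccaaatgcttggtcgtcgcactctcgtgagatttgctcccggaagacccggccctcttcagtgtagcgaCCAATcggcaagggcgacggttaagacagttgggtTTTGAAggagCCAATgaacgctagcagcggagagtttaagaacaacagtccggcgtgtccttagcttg
Ccnb2: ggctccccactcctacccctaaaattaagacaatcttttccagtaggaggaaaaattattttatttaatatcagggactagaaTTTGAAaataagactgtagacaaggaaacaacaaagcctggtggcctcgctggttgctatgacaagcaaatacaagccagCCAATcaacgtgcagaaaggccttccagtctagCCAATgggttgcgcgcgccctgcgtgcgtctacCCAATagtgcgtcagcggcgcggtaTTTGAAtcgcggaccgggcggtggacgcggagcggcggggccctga
Mad2l1: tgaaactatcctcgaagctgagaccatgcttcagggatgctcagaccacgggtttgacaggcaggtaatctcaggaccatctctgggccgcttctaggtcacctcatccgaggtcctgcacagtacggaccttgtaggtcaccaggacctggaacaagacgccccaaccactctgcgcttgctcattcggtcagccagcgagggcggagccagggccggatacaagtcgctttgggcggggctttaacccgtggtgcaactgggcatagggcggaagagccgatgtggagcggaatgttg
Mcm5: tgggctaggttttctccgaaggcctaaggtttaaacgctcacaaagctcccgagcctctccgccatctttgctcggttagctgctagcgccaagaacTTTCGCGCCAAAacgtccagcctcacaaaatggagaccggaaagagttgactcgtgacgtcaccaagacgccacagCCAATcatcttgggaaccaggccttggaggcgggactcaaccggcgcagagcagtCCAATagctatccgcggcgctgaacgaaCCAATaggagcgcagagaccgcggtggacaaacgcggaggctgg
Rrm2: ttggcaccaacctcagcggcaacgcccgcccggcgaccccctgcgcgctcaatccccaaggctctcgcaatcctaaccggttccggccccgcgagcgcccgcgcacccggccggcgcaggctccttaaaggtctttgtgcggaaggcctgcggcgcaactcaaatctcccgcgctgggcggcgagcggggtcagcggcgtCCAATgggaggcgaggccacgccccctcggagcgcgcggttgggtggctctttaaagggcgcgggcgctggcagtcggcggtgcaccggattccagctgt

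S phase genes also had higher values in the replicate 1 arrays, with smaller median gaps. For 12 of 16 tested members both replicate 1 arrays lay above both replicate 2 arrays, against 13.0% of all genes. The median S phase gene lay 0.07 above its mean (log2) in high-fat diet replicate 1 and 0.11 below it in replicate 2, against 0.15 above it in casein diet replicate 1 and 0.13 below it in replicate 2. Replicate 1 exceeded replicate 2 by a median factor of 1.15 on the high-fat diet and 1.22 on the casein diet. The exceptions, by the brightest probe set, were Mcm7, Cdc45, Pcna and Rrm2. Of these, Mcm7, Cdc45 and Rrm2 had a further probe set above the filter with both replicate 1 arrays on top. Tyms was on the array but below the filter.

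Entry into S phase is driven by E2F1 and by cyclin E. E2f1 had intensities of 107 and 95.6 on the high-fat diet and 99.2 and 96.8 on the casein diet. The cyclin E gene Ccne1 had 165 and 136 on the high-fat diet and 154 and 135 on the casein diet. Its relative Ccne2 had 117 and 77.6 on the high-fat diet and 129 and 93.0 on the casein diet. E2f1 was nearly level across arrays, while Ccne2 spread more within each diet than between diets (log2 difference -0.20, SE 0.29).

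Origins are licensed when Cdc6 and Cdt1 load the Mcm2-7 helicase. Cdc6 had intensities of 87.7 and 63.2 on the high-fat diet and 121 and 68.0 on the casein diet, the widest spread of the loading factors. Cdt1 had 553 and 525 on the high-fat diet and 587 and 475 on the casein diet. The helicase genes had narrower spreads than Cdc6, but not all had narrower spreads than Cdt1. Mcm5 spread more than Cdt1, with 568 and 484 on the high-fat diet and 669.7 and 479.7 on the casein diet. Mcm7 was flat in its brightest probe set, at 1246 and 1223 on the high-fat diet and 1219 and 1228 on the casein diet. The 95% interval of its log2 difference was -0.24 to 0.27. Other Mcm7 probe sets above the filter gave -0.04, 0.089 and 0.126. Those of 0.089 and 0.126 had both replicate 1 arrays on top. The differences of the 6 helicase genes Mcm2 to Mcm7 ranged from -0.17 for Mcm6 to 0.01 for Mcm7. None of them had diets that did not overlap.

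Cdc45 and Mcm10 turn the loaded helicase into an active fork. Cdc45 had intensities of 88.6 and 84.3 on the high-fat diet and 98.7 and 91.4 on the casein diet. Both high-fat diet arrays were below both casein diet arrays, a pattern found for 19.3% of all genes tested (log2 difference -0.14, SE 0.10, 95% interval -0.42 to 0.15). The other Cdc45 probe set gave -0.08, with diets that overlapped and both replicate 1 arrays on top. Mcm10 had 92.1 and 76.8 on the high-fat diet and 130.1 and 76.8 on the casein diet, so casein diet replicate 1 stood alone.

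Fork and nucleotide genes went different ways. Pcna, the sliding clamp of DNA polymerases, had intensities of 2696 and 2716 on the high-fat diet and 3113 and 2680.1 on the casein diet, and casein diet replicate 1 alone was high. Rrm1, the large subunit of ribonucleotide reductase, which makes deoxynucleotides, had 574 and 438 on the high-fat diet and 564 and 477 on the casein diet. Rrm2, its small subunit, had 868 and 679.7 on the high-fat diet and 654 and 422 on the casein diet. For Rrm2 both high-fat diet arrays were above both casein diet arrays, a pattern of 16.6% of all genes tested. The gap between the nearest arrays was small beside the spread within each diet, and the log2 difference was 0.55 (SE 0.28, 95% interval -0.24 to 1.33, limma unadjusted p = 0.123, adjusted p = 0.863). Leaving out casein diet replicate 1 gave 0.87, and leaving out replicate 2 gave 0.23. The 2 other Rrm2 probe sets gave 0.28 and 0.58, and in both the diets overlapped. In the probe set that gave 0.58 both replicate 1 arrays were on top. Tyms, thymidylate synthase, had 30.7 and 32.0 on the high-fat diet and 25.3 and 27.3 on the casein diet, too dim to be tested, and its other 3 probe sets were dimmer and divided in sign.

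Across the diets, no cell cycle gene passed limma's test over all genes, and neither did any other gene (0 of 12797, 0.0%, at an adjusted p under 0.05). Without casein diet replicate 2, 19 of 12820 genes passed (0.148%) and none was a member. At an unadjusted p under 0.05 there were 0 of 16 S phase genes and 0 of 24 mitosis genes, where 2.24% of all genes passed toward the high-fat diet and 2.73% toward the casein diet. Without casein diet replicate 2 there were 1 S phase gene and 3 mitosis genes, where 14.1% of all genes passed. Leaving out casein diet replicate 1 gave 1 S phase gene and 0 mitosis genes, where 3.73% of all genes passed. With 2 arrays against 2 an exact two-sided permutation test cannot go below p = 0.333, so no single value was tested outside limma's model. Of the mitosis genes 21 of 24 had lower means on the high-fat diet, with a median log2 difference of -0.15, where 51.4% of all genes were lower and their median was -0.01. Of the S phase genes 11 of 16 were lower, with a median of -0.07. The median difference turned to 0.13 for mitosis genes and to 0.10 for S phase genes without casein diet replicate 1, when 21 of 24 and 14 of 16 had higher means on the high-fat diet. Without high-fat diet replicate 2 the medians were 0.08 and 0.05. Without high-fat diet replicate 1 they were -0.34 and -0.14. Leaving out casein diet replicate 2 gave -0.45 and -0.18. Leaving out 1 array was therefore enough to turn the sign of both medians. Between the arrays numbered 2 alone, with gastric sums of 480.0 on the high-fat diet and 10491 on the casein diet, the median difference, which has no test, was -0.039 for mitosis genes and -0.003 for S phase genes.

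**Figure D3:**
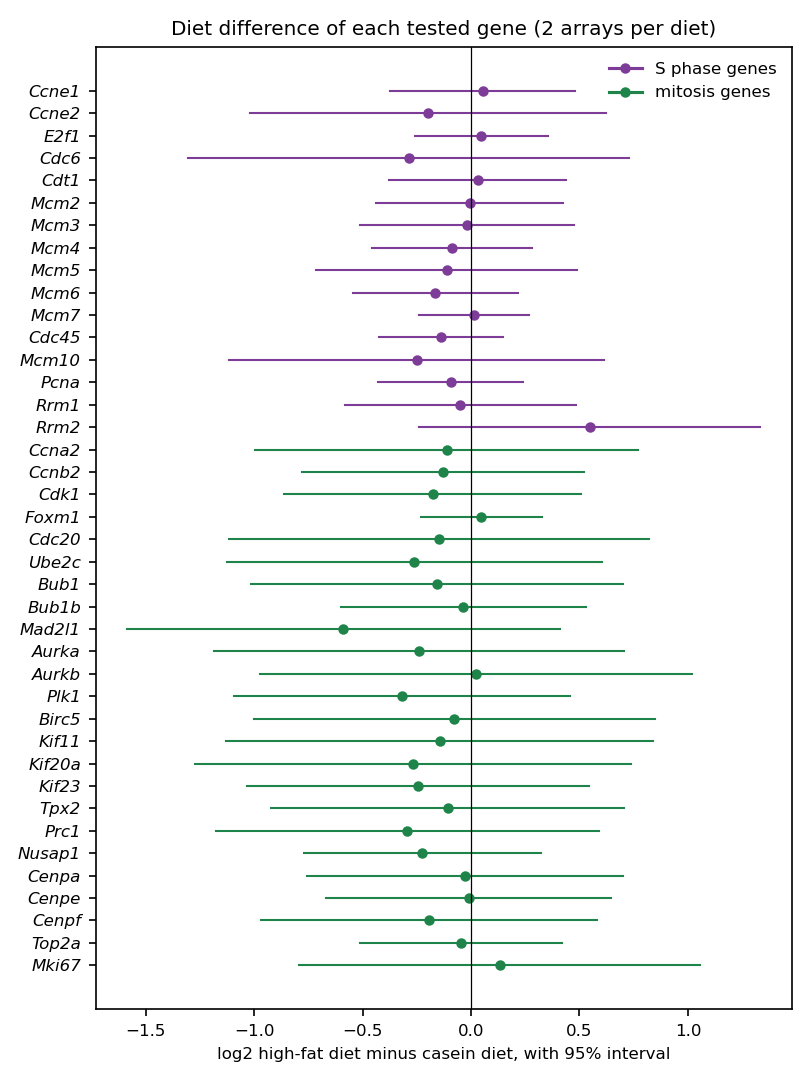
Log2 difference, high-fat diet minus casein diet, with limma's 95% interval for the 16 tested S phase genes (purple) and the 24 mitosis genes (green). All 40 intervals include 0, and their median half-width is 0.43 for S phase genes and 0.83 for mitosis genes.

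The intervals set what these arrays could show. The median half-width was 0.83 log2 for mitosis genes and 0.43 for S phase genes, against 0.37 over all genes tested. For mitosis genes the lower bounds ran from -1.58 to -0.23 and the upper bounds from 0.32 to 1.05 (log2 difference). A p that misses the threshold here does not show that the diets were alike. The absolute gap between the 2 arrays of a diet had a median of 0.38 for mitosis genes on the high-fat diet and 0.61 on the casein diet, against an absolute diet difference of 0.15. For all genes tested these medians were 0.13, 0.17 and 0.12. Among the other probe sets of members above the filter, 14 of 18 for S phase genes and 9 of 16 for mitosis genes had the same sign of diet difference as the brightest. Both replicate 1 arrays were on top in 14 of 18 of these probe sets for S phase genes and 14 of 16 for mitosis genes.

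Further genes of the pathway came from lists that do not share members with these 42. Of 78 other mitosis genes tested, 69 had both replicate 1 arrays above both replicate 2 arrays (88.5%), and of 45 other replication genes 24 had (53.3%). This held for 13.0% of all genes tested. Means were lower on the high-fat diet for 58 of 78 and 31 of 45, against 51.4% of all genes tested. The median differences were -0.09 and -0.05 (log2). They turned to 0.092 and 0.062 without casein diet replicate 1 and were -0.338 and -0.185 without casein diet replicate 2. With all 4 arrays, 0 of either list had a limma unadjusted p under 0.05, against 4.97% of all genes tested. Of the 6 named genes of the other mitosis list, the kinase gene Pbk had the largest difference, with intensities of 336 and 258 on the high-fat diet and 509 and 329 on the casein diet (log2 difference -0.48, SE 0.28). Ncapg2, a condensin subunit gene, went the other way with 499 and 372 on the high-fat diet and 386 and 308 on the casein diet (log2 difference 0.32, SE 0.21). Mastl, the kinase that restrains mitotic phosphatase, differed by -0.25 (SE 0.10). Of the brightest mitosis genes, the securin gene Pttg1, the checkpoint gene Bub3 and the microtubule destabiliser gene Stmn1 differed by 0.10, -0.05 and 0.04. In the origin recognition complex, Orc4 differed by -0.29 (SE 0.11) and Orc1 by 0.23 (SE 0.09), each with diets that did not overlap. Both high-fat diet arrays were below in Orc4, as in 19.3% of all genes tested, and above in Orc1, as in 16.6%. The primase subunit gene Prim2 differed by -0.30 (SE 0.20). The brightest replication genes Rpa1, Slbp and Fen1, for a single-strand binding protein, the histone mRNA binding protein and the flap endonuclease, differed by 0.01, -0.03 and -0.08.

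**Figure D4:**
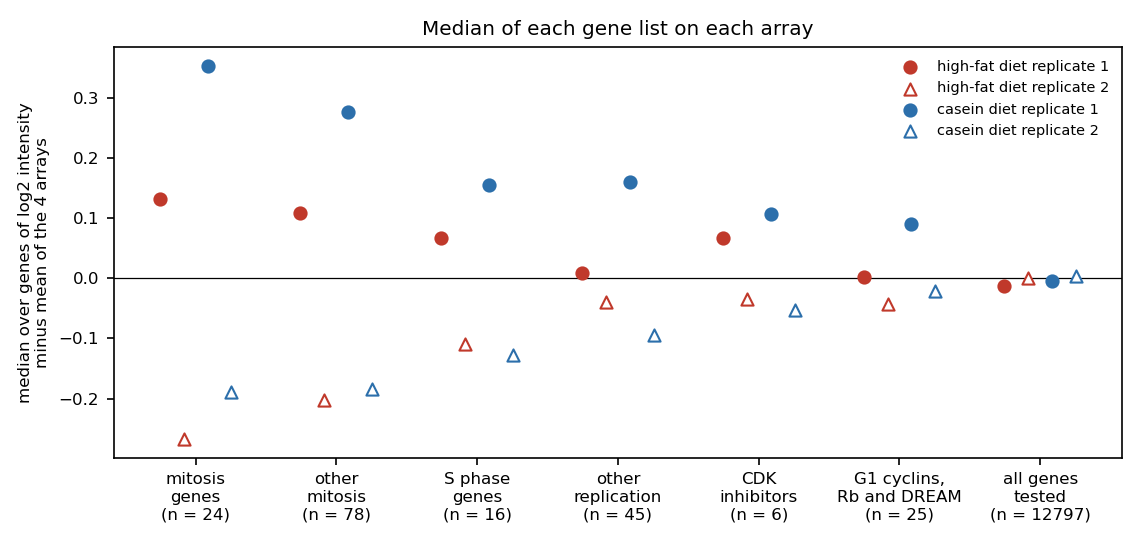
Median over the tested genes of each list of log2 intensity minus the gene's mean over the 4 arrays, with 1 point per array (red, high-fat diet; blue, casein diet; filled circles, replicate 1; open triangles, replicate 2). The gap between replicate 1 and replicate 2 is wide for both mitosis lists and absent from the median of all 12797 genes.

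Inhibitors of cyclin-dependent kinases had mixed diet differences. Of 6 tested, 4 had both replicate 1 arrays above both replicate 2 arrays (66.7%), against 13.0% of all genes tested. Cdkn1a, the p53-induced inhibitor p21, had intensities of 591 and 368 on the high-fat diet and 861 and 460.1 on the casein diet, so its replicate 1 arrays were also on top (log2 difference -0.43, SE 0.42). Cdkn1c, the imprinted inhibitor p57, had 616 and 619.9 on the high-fat diet and 333 and 669 on the casein diet, low in casein diet replicate 1 alone (log2 difference 0.39, SE 0.38). Cdkn2b, the INK4 inhibitor p15, had 70.4 and 83.6 on the high-fat diet and 99.2 and 95.8 on the casein diet (log2 difference -0.35, SE 0.13, limma unadjusted p = 0.0562, adjusted p = 0.863). Its diets did not overlap, and both high-fat diet arrays lay below, as in 19.3% of all genes tested. Cdkn1b, Cdkn2c and Cdkn2d, for p27, p18 and p19, differed by 0.01, 0.08 and -0.12, and both replicate 1 arrays were on top for each. Cdkn2a was too dim to be tested, at 15.5 and 9.62 on the high-fat diet and 13.5 and 11.4 on the casein diet.

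D-type cyclins link growth signals to the cell cycle, and their genes did not share the order of the mitosis genes. Ccnd1 had intensities of 689.7 and 974 on the high-fat diet and 972 and 858 on the casein diet, lowest in high-fat diet replicate 1. Ccnd2 had 1118 and 1413 on the high-fat diet and 1534 and 1334 on the casein diet, again lowest in that array. Ccnd3 had 338 and 331 on the high-fat diet and 438 and 401 on the casein diet. Its diets did not overlap, and both high-fat diet arrays lay below, as in 19.3% of all genes tested. It was the 1 gene of the 25 in its list with an unadjusted p under 0.05, against 4.97% of all genes tested (log2 difference -0.33, SE 0.10, limma unadjusted p = 0.0343, adjusted p = 0.863), and its dimmest probe set gave 0.20. Myc, the growth transcription factor, had 384 and 438 on the high-fat diet and 305 and 369 on the casein diet (log2 difference 0.29, SE 0.15). Mybl2, which encodes B-MYB, had 45.4 and 33.4 on the high-fat diet and 51.9 and 36.5 on the casein diet, in the order of the mitosis genes.

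Marker sums of other cell types were set beside the mitosis genes. Of 11 marker lists, 1 had both replicate 1 arrays above both replicate 2 arrays. This was the intestinal list, with sums of 1582 and 786 on the high-fat diet and 4256 and 603 on the casein diet, 6 of its 10 genes being lower on the high-fat diet and 5 below the filter. High-fat diet replicate 1 and casein diet replicate 1 differed in which intestinal genes were high. Olfm4, a gene of intestinal stem cells that other epithelia can also express, had 1337 and 485 on the high-fat diet and 576 and 186 on the casein diet. It was the 1 of 5 tested list genes with both replicate 1 arrays above both replicate 2 arrays, against 13.0% of all genes. Lgr5, also of the list, had 48.9 and 68.2 on the high-fat diet and 48.5 and 99.25 on the casein diet. Its replicate 1 arrays lay below both replicate 2 arrays, as in 17.8% of all genes. Lgals4, which encodes an intestinal galectin, had 73.5 and 102.8 on the high-fat diet and 1908 and 139 on the casein diet. Fabp2, for the intestinal fatty acid binding protein, had 7.37 and 7.14 on the high-fat diet and 792 and 28.5 on the casein diet, with a mean below the filter. Lgals4 and Fabp2 were high in casein diet replicate 1, as were the microvillus gene Vil1, at 391.7, and the goblet cell gene Zg16, at 475. In all 4 genes both high-fat diet arrays were below both casein diet arrays, as in 19.3% of all genes tested. The intestinal identity gene Cdx1 was below the filter, at 9.93 and 8.96 on the high-fat diet and 9.20 and 8.85 on the casein diet. Cdx2, of the same role, was below it too, at 29.3 and 27.5 on the high-fat diet and 27.7 and 30.2 on the casein diet. Muc2 and Cdh17, also of the list, were below the filter and not high in casein diet replicate 1. Muc2 had 21.6 and 21.0 on the high-fat diet and 18.7 and 22.1 on the casein diet. Cdh17 had 8.90 and 10.6 on the high-fat diet and 9.04 and 9.92 on the casein diet. T and NK cell markers summed to 1238 and 1379 on the high-fat diet and 2771 and 1511 on the casein diet, with 11 of 11 lower on the high-fat diet. Epithelial markers summed to 9506 and 14864 on the high-fat diet and 28793 and 21267 on the casein diet, with 10 of 10 lower on the high-fat diet. These 2 lists were highest in casein diet replicate 1, as the mitosis genes were, but not in high-fat diet replicate 1. The part of any of these tissues in the order of the mitosis genes was not tested.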

How the data were processed

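Mouse lesion RNA was labelled from 0.1 µg and read on 4 Affymetrix arrays, per the labels' protocols. The intensity values deposited by the authors are linear and level between arrays. GCOS and RMA are named per the submitters' processing notes; the sources used here give no versions or roles, nor the step that made RMA values linear. Log2 was taken with no pseudocount. Of 45101 probe sets, 64 were controls, 34945 had 1 gene symbol in GEO's platform annotation, 932 several and 9160 none. Of these, 34754 matched the RefSeq gene table by gene ID, which changed 0 symbols. The brightest probe set stood for each of 18193 genes. Genes whose mean reached the 40th percentile of probe sets (intensity 33.9) were tested across all 4 arrays with limma 3.58.1 in R 4.3.3 (lmFit and eBayes, two-sided, Benjamini-Hochberg over all tested genes), after the code had been tested on simulated data. Dim genes and genes of several symbols were left out.

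Groups and replicate numbers came from sample titles. The members and all gene lists were chosen with earlier results of these data known. Named were all members, all CDK inhibitors, Ccnd1, Ccnd2, Ccnd3, Myc and Mybl2, and the 3 brightest genes and the 3 of smallest p of each further list. Alternatives were a replicate block, other scalings, filters (none or the 60th percentile), other choices of probe set, a pseudocount of 16, a variance trend and leaving out each array. The comparison of the arrays numbered 2 alone was added after seeing the data.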

Additional observations from a re-analysis of the deposited data

How the results depend on the processing

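With 1 array left out at a time, the lone array of its diet is assumed to vary like the others. The count of genes at an adjusted p under 0.05 then ran from 0 to 19, and at an unadjusted p under 0.05 from 428 to 1809, both highest without casein diet replicate 2, against 0 and 636 with all 4 arrays. Members at an unadjusted p under 0.05 numbered 0 to 1 for S phase genes and 0 to 3 for mitosis genes. These were Mcm10 and, for mitosis, Ube2c, Mad2l1 and Nusap1 without casein diet replicate 2, and Rrm2 without casein diet replicate 1. The median difference ran from -0.18 to 0.10 for S phase genes, from -0.45 to 0.13 for mitosis genes, from -0.338 to 0.092 for other mitosis genes, from -0.185 to 0.062 for other replication genes and from -0.126 to -0.010 for the list of D-type cyclin, Rb and DREAM genes. The last median was 0.013 with the probe set of lowest mean. The cause of these changes was not tested.

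The labels give both diets the replicate numbers 1 and 2 but state no pairing. Deviations from the diet means correlated at r = -0.02 over 12797 genes, which are not independent replicates. With the replicate number as a block, 0 genes passed an adjusted p under 0.05, 576 an unadjusted p under 0.05, and 1 S phase gene, Rrm2, was among them (log2 difference 0.55, SE 0.14, limma unadjusted p = 0.0316, adjusted p = 0.911).

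For 63 single genes, 786 differences were computed under alternatives, of which 698 kept their direction and 88 turned it, 69 of them with 1 array left out. With the mean of all probe sets the turned differences were -0.013 for Ccne1, -0.057 for E2f1, 0.074 for Aurka, -0.007 for Aurkb, 0.003 for Top2a, -0.009 for Rpa1, -0.083 for Cdkn1b and 0.005 for Ccnd3. With the probe set of lowest mean they were -0.079 for Ccne1, 0.112 for Mcm3, -0.040 for Mcm7, -0.034 for Aurkb, 0.059 for Kif11, -0.030 for Rpa1, -0.036 for Orc1, -0.173 for Cdkn1b and 0.204 for Ccnd3. Median centring gave -0.002 for Cdkn1b, and quantile normalization 0.000 for Mcm2. With 1 array left out the differences ranged from -0.088 to 0.19 for Ccne1, -0.50 to 0.10 for Ccne2, -0.036 to 0.13 for E2f1, -0.70 to 0.13 for Cdc6 and -0.12 to 0.18 for Cdt1. The range was -0.16 to 0.15 for Mcm2, -0.17 to 0.14 for Mcm3, -0.21 to 0.036 for Mcm4, -0.35 to 0.13 for Mcm5 and -0.63 to 0.13 for Mcm10. It ran from -0.20 to 0.014 for Pcna, -0.24 to 0.15 for Rrm1, -0.45 to 0.23 for Ccna2, -0.39 to 0.13 for Ccnb2 and -0.45 to 0.098 for Cdk1. Values lay from -0.007 to 0.10 for Foxm1, -0.54 to 0.25 for Cdc20, -0.65 to 0.12 for Ube2c, -0.49 to 0.17 for Bub1 and -0.21 to 0.14 for Bub1b. Leaving out 1 array gave -0.63 to 0.16 for Aurka, -0.34 to 0.38 for Aurkb, -0.46 to 0.31 for Birc5, -0.47 to 0.18 for Kif11 and -0.65 to 0.12 for Kif20a. For further genes the range was -0.54 to 0.054 for Kif23, -0.47 to 0.26 for Tpx2, -0.61 to 0.024 for Prc1, -0.46 to 0.008 for Nusap1 and -0.34 to 0.28 for Cenpa. The limits were -0.27 to 0.24 for Cenpe, -0.46 to 0.078 for Cenpf, -0.18 to 0.090 for Top2a, -0.25 to 0.51 for Mki67 and -0.077 to 0.099 for Rpa1. Others ran from -0.17 to 0.11 for Slbp, -0.22 to 0.057 for Fen1, -0.18 to 0.26 for Stmn1, -0.89 to 0.018 for Cdkn1a and -0.034 to 0.050 for Cdkn1b. The rest ranged from -0.11 to 0.89 for Cdkn1c, -0.23 to 0.002 for Cdkn2d, -0.41 to 0.093 for Ccnd1 and -0.41 to 0.095 for Mybl2. Other filters, a pseudocount of 16 and a variance prior with a trend turned no difference. The number of arrays limits the precision.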

Other observations

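Among the 25 genes of the list of D-type cyclin, Rb and DREAM genes, 2 were picked after their values were seen. Mycn, a growth transcription factor of the Myc family, had intensities of 65.8 and 204 on the high-fat diet and 247 and 141 on the casein diet. It was lowest in high-fat diet replicate 1 and highest in casein diet replicate 1, and the diets overlapped (log2 difference -0.69, SE 0.67). E2f8, an atypical E2F that represses E2F targets late in S phase, had 163 and 119.8 on the high-fat diet and 218 and 142 on the casein diet, in the order of the mitosis genes (log2 difference -0.33, SE 0.29).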
